A study of Homo sapiens with 12 samples.

Results

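Cancer-testis antigen genes were followed across 12 libraries of 2 triple-negative breast cancer cell lines. The rule for a member is its name and uses no measured value, although these families were picked with earlier results of these data known. Members are the rows listed as protein coding whose symbols belong to the MAGEA, MAGEB, MAGEC, PAGE, XAGE, GAGE, SSX, CTAG, SPANX, CT45A or CT47A families. This gave 55 genes of 17665 protein-coding genes and of 32152 genes listed. Of the 55 genes, 51 lie on chromosome X. The other 4 are CTAGE1, CTAGE4, CTAGE5 and CTAGE15, which begin with the letters CTAG but form a family of their own. CTAGE5, also called MIA2, is a broadly used gene of the secretory pathway and is given here for completeness.

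Cancer-testis antigens are proteins that are normally made in male germ cells, and for some families in placenta, and that reappear in many tumours. Their promoters are usually silenced in body cells, largely by DNA methylation, and T cells can recognise peptides of several of them, which is why MAGEA3 and the CTAG proteins, among them NY-ESO-1, have been used as vaccine targets. MAGE proteins share a domain that binds RING ubiquitin ligases, SSX proteins are nuclear repressors that associate with Polycomb complexes, SPANX proteins sit at the nucleus of sperm, and PAGE, XAGE and GAGE proteins are small related proteins of largely unknown function. Many of these genes are recent copies of one another, so that short reads cannot always be given to a single copy.

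MDA-MB-231 and Hs-578T are established lines of mesenchymal appearance. For each line there were parental controls, cells with the label ERK5-ko and cells with the label MEK5DD, with 2 libraries of each. ERK5, the product of MAPK7, is a kinase that is activated by MEK5, and MEK5DD is a constitutively active MEK5. ERK5-ko cells were made with CRISPR guides against MAPK7, sorted for a fluorescent marker on the guide plasmid and grown from single cells, and in MDA-MB-231 only 1 clone survived. How the MEK5DD cells were made is not described in the sources used here. The 2 libraries of a group carry consecutive passage numbers, 29 and 30 in MDA-MB-231 and 83 and 84 in Hs-578T for the parental controls, against 7 to 11 in the engineered cells. Passage and label therefore cannot be told apart, and in ERK5-ko cells neither can clone of origin and label. Which Hs-578T clone was sequenced is not given in the sources used here. The p-values measure the spread between these passages alone. Levels are RPKM, reads scaled to the length of the gene model and to the reads of the library, and every value rests on n = 2 libraries a group with SD over those 2.

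The libraries held 20248162 to 27791195 reads, of which 92.0% to 94.5% fell on the genes listed. MAPK7 RNA was not lower in libraries labelled ERK5-ko. In MDA-MB-231 it was at 16.3 and 17.8 RPKM against 13.3 and 14.3 in the parental controls. In Hs-578T it was at 17.8 and 18.1 against 14.0 and 16.0. Gene editing need not lower the RNA. The paper checked its clones by qRT-PCR and Western blot, and reports significantly less ERK5 protein in knockout cells of both lines. Protein was not measured in the libraries used here. MAP2K5, the gene of MEK5, was at 189 and 184 RPKM in MDA-MB-231 libraries labelled MEK5DD against 12.9 and 13.6 in the controls, but only at 21.3 and 23.8 against 14.6 and 16.9 in Hs-578T, where its log2 fold change of 0.50 (SE 0.102, adjusted p = 0.00492, limma) stayed under the fold required for a call. The mesenchymal marker VIM was at 1598 RPKM or more in every library, and FN1, another, was at 36.8 to 77.6 in MDA-MB-231 and 1847 to 3278 in Hs-578T. The epithelial marker EPCAM was at 18.4 to 25.8 RPKM in parental and ERK5-ko libraries of MDA-MB-231, at 7.79 and 7.08 in those labelled MEK5DD and at 0.0862 or less in Hs-578T, and CDH1 was at 1.156 or less in every library. ESR1 was at 0.120 or less and PGR at 0.348 or less, while ERBB2 lay between 27.8 and 56.9. Of 8 germ cell markers (DAZL, DDX4, SYCP3, PRM1, PRM2, TNP1, PGK2 and ACR) 5 had values, and none exceeded 2 reads in a library, so that RNA of germ cells was not detectable at this depth. The leukocyte markers PTPRC, CD3E and LYZ summed to at most 1.498 RPKM, and of the endothelial markers PECAM1 reached 6.48 RPKM in Hs-578T while CDH5 never exceeded 1 read and VWF never exceeded 7.

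How far reads could be confused between copies was measured on transcripts. Each transcript of a member in GENCODE 29 was divided into all pieces of 50 bases, and pieces that also occur in a transcript of another gene were counted. In 20 of the 55 members over 50% of the pieces were shared. Among the 21 members with enough signal to be tested, described next, 5 were in this class, SPANXC with 84.9%, CT45A10 with 70.6%, MAGEA3 with 56.5%, MAGEA6 with 53.9% and PAGE2B with 52.3%, and their values may be divided among copies in ways that the counting decides. CTAG2 shared 43.1% with CTAG1A, and PAGE2 shared 38.6% with PAGE2B. In 9 of the 21 less than 5% was shared, namely in MAGEA1, MAGEA8, MAGEA11, MAGEB16, MAGEC2, PAGE1, XAGE2, SPANXN3 and CTAGE5. SSX1 shared 8.81%, PAGE5 12.2%, SSX3 12.8%, MAGEA12 13.8% and SPANXB1 21.7%. The counting tool and its rule for reads with several matches are not given in the sources used here. The length of the gene model, as recovered from the values, was within 5% of the GENCODE 29 exon length in 19 of 55 members. The sequences counted may therefore differ from those compared here, and the shares are approximate. A further 44 protein-coding genes of GENCODE 29 that fit the name rule were not analysed here, 12 of them CT47A and 9 GAGE genes.

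A member was tested where it reached 0.5 RPKM in at least 2 libraries, and 21 of 55 members did. Of these, 13 reached 0.5 RPKM in Hs-578T libraries alone, 1 (SPANXB1) in MDA-MB-231 libraries alone and the others in both lines. A gene that passes only through the group where it is high had to differ between groups, so counts over the 21 say nothing of the 55. A further 14 members had more than 3 reads in at least 1 library and 20 never had more, taking the smallest whole numbers of reads that the values allow. All 4 GAGE genes were in the last class, with at most 2 reads, as were MAGEA4, MAGEA10, PAGE4, CTAG1A and SSX5. Just outside the filter were XAGE1B, which reached 0.945 RPKM in a single library, SPANXD, which reached 0.582, and SPANXN1, which reached 0.454.

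Sequences of the 250 bases upstream of the RefSeq start are shown for some of the tested members, for the reasons given with each. Every CG, the site of DNA methylation, is in capitals. The RefSeq table, built on GRCh38.p14, held such windows for 17 of the 21 tested members. The MAGEA3 window (chrX:152698544-152698793, plus strand) and the MAGEA6 window (chrX:152769690-152769939, minus strand) are the same in 250 of 250 positions, so that 1 line stands for both. PAGE2 (chrX:55088768-55089017), PAGE2B (chrX:55074780-55075029) and PAGE5 (chrX:55220096-55220345), all on the plus strand, are diverged copies. MAGEA11 (chrX:149711810-149712059) and SSX1 (chrX:48255142-48255391), both on the plus strand, hold the most and the fewest CG of the members' windows, and SPANXB1 (chrX:141002344-141002593, plus strand) is the member that was high in the other line.
MAGEA3 and MAGEA6: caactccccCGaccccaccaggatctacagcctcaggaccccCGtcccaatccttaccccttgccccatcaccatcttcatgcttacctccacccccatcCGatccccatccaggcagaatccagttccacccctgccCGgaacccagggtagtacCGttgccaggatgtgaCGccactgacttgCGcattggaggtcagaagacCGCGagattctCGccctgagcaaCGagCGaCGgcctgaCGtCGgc
MAGEA11: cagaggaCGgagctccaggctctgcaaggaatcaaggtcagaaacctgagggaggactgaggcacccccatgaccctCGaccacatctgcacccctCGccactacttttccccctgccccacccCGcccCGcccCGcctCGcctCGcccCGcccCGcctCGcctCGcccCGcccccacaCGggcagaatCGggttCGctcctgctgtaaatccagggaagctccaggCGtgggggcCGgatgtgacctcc
PAGE2: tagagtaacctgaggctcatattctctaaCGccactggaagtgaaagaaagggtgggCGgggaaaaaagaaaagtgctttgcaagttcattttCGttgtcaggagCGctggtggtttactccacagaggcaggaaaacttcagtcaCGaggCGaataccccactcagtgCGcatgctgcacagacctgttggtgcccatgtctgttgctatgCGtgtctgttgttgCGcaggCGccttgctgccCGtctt
PAGE2B: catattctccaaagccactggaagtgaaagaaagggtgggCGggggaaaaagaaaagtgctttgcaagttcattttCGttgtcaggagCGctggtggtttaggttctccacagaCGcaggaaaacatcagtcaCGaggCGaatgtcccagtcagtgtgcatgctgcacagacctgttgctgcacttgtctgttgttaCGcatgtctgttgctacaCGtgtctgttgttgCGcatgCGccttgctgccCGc
PAGE5: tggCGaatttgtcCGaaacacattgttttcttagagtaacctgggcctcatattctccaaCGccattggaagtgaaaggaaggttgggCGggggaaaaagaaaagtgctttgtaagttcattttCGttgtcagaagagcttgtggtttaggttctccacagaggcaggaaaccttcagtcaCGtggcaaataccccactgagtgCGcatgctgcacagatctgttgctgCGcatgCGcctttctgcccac
SSX1: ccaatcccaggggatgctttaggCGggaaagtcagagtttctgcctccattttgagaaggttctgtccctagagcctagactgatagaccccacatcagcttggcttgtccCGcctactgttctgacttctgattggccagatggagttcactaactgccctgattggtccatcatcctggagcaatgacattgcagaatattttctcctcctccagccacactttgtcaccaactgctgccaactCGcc
SPANXB1: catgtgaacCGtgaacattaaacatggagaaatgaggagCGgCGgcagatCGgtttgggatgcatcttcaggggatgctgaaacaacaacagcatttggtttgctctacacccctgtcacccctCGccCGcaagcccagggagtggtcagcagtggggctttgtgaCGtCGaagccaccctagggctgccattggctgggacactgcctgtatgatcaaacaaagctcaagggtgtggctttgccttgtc

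The windows of tested members held 3 to 18 CG with a median of 9.0, against a median of 11 over all 35116 windows in the table. MAGEA11 had 18 and MAGEA3 and MAGEA6 had 15, while PAGE2 and PAGE2B had 11, PAGE5 had 9, SPANXB1 had 8 and SSX1 had 3. The longest stretch that PAGE2 and PAGE2B have in common is 55 bases, that of PAGE2 and PAGE5 is 20 bases and that of PAGE2B and PAGE5 is 28 bases. The sequence CCGGAA, which many ETS factors bind, was searched on both strands. It occurred in 4 of the 20 windows of tested members, namely MAGEA3, MAGEA6, 1 of CT45A10 and 1 of MAGEB16, and in 14.5% of all windows. A match in letters does not show that a factor binds.

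The plot of all 21 tested members by library gives each value.

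**Figure D1:**
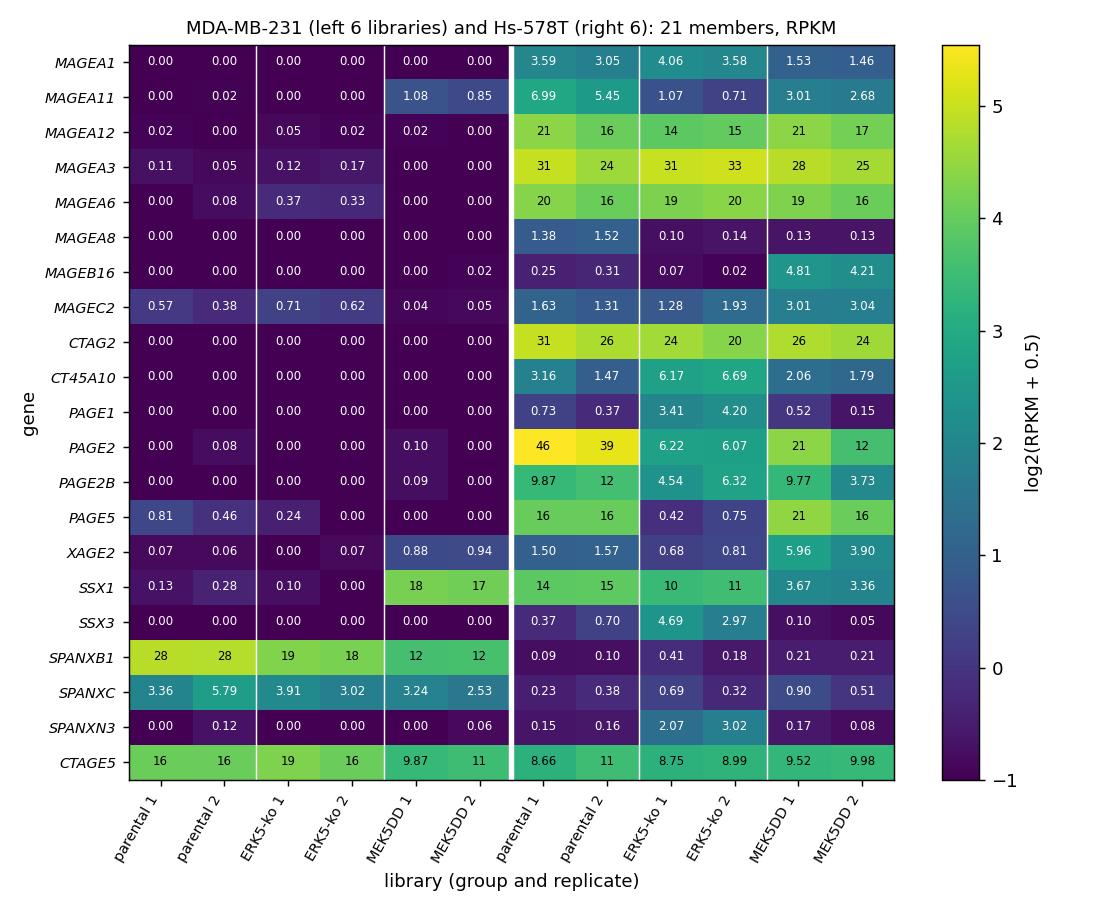
RPKM of the 21 tested cancer-testis members (rows, by family) in each of the 12 libraries (columns, by group and replicate), with the colour giving log2(RPKM + 0.5) and the number in each cell the RPKM. CTAG2, MAGEA1, MAGEA8, CT45A10, PAGE1 and SSX3 had no read in any MDA-MB-231 library, whereas SPANXB1 reached 28.4 RPKM there and no more than 0.408 in Hs-578T.

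The summed level differed more between the lines than between any engineered group and its controls. Summed over the 51 members on chromosome X, the level was 35.2 and 37.2 RPKM in MDA-MB-231 parental controls and 210 and 180 in those of Hs-578T. In MDA-MB-231 the members at 0.5 RPKM or more numbered 4 and 3 in the parental libraries, 3 and 3 in those labelled ERK5-ko and 6 and 5 in those labelled MEK5DD. In Hs-578T they numbered 15 and 15, 16 and 16, and 16 and 15. In Hs-578T these came from several families. In MDA-MB-231 the SPANX sum was the highest of the families on chromosome X in parental libraries and in those labelled ERK5-ko, whereas in those labelled MEK5DD the SSX sum of 18.07 and 17.11 RPKM was above the SPANX sum of 14.96 and 14.61. Since RNA comes from whole cultures, fewer cells that express a gene and less RNA per cell cannot be told apart.

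By group means MAGEA genes made up the largest family sum in Hs-578T, at 74.9 ± 12.5 RPKM (SD, n = 2) in parental controls against 0.142 ± 0.01004 in MDA-MB-231. In the second Hs-578T control library, however, the PAGE sum of 66.67 RPKM was above the MAGEA sum of 66.03. MAGEA3 (chromosome X, 152698752 to 152702347) was at 30.8 and 23.5 RPKM against 0.112 and 0.0499, which is 335.5-fold by the means and rests on 4 and 2 reads in MDA-MB-231. MAGEA12 was at 20.7 and 16.1 RPKM and MAGEA6 at 19.8 and 16.3, at least 281.9-fold and 207.4-fold above 3 reads a library in MDA-MB-231. MAGEA11, whose product is known as a coregulator of the androgen receptor, reached 6.99 and 5.45 RPKM, MAGEA1, the founding member of the family, 3.59 and 3.05, and MAGEA8 1.38 and 1.52, and in none of the 3 did a parental MDA-MB-231 library hold more than 1 read.

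PAGE genes came next by the means of the parental controls, at 69.7 ± 4.21 RPKM in Hs-578T against 0.740 ± 0.279 in MDA-MB-231. PAGE2 was the highest member in any library, at 46.2 and 38.9 RPKM in Hs-578T parental controls, at least 161.5-fold above 3 reads. CTAG2, the gene of LAGE-1, was at 31.0 and 26.2 RPKM with no read in MDA-MB-231, at least 216.5-fold. SSX1 was at 14.3 and 14.7 RPKM against 0.126 and 0.279, which is 71.8-fold by the means and rests on 4 and 10 reads in MDA-MB-231. In each of these genes the parental controls of the lines did not overlap, which with 2 libraries a group adds little. The share of all tested genes without overlap was not counted.

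SPANX genes ran the other way. SPANXB1 (chromosome X, 141002591 to 141003706) was at 28.4 and 27.6 RPKM in MDA-MB-231 parental controls and at 0.0937 and 0.103, 1 read each, in Hs-578T, at least 94.7-fold lower. SPANXC was at 3.36 and 5.79 against 0.227 and 0.376 RPKM, at least 12.8-fold lower, but most of its sequence is common to other SPANX genes. By the fit, 17 of the tested members were called higher in Hs-578T, where 23.5% of all 13737 tested genes were, and 2 were called lower, SPANXB1 and SPANXC, where 20.7% of all were. Since 13 of the 21 had passed the filter through Hs-578T alone, these counts were partly fixed by the filter and are given as a description. The median log2 difference over all tested genes was -0.19 and became 0.02 with median-ratio scaling, under which none of the 19 calls was lost. SPANXN3 and CTAGE5 were not called, and CTAGE5 was at 16.3 and 16.2 RPKM in MDA-MB-231 and 8.66 and 10.9 in Hs-578T.

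**Figure D2:**
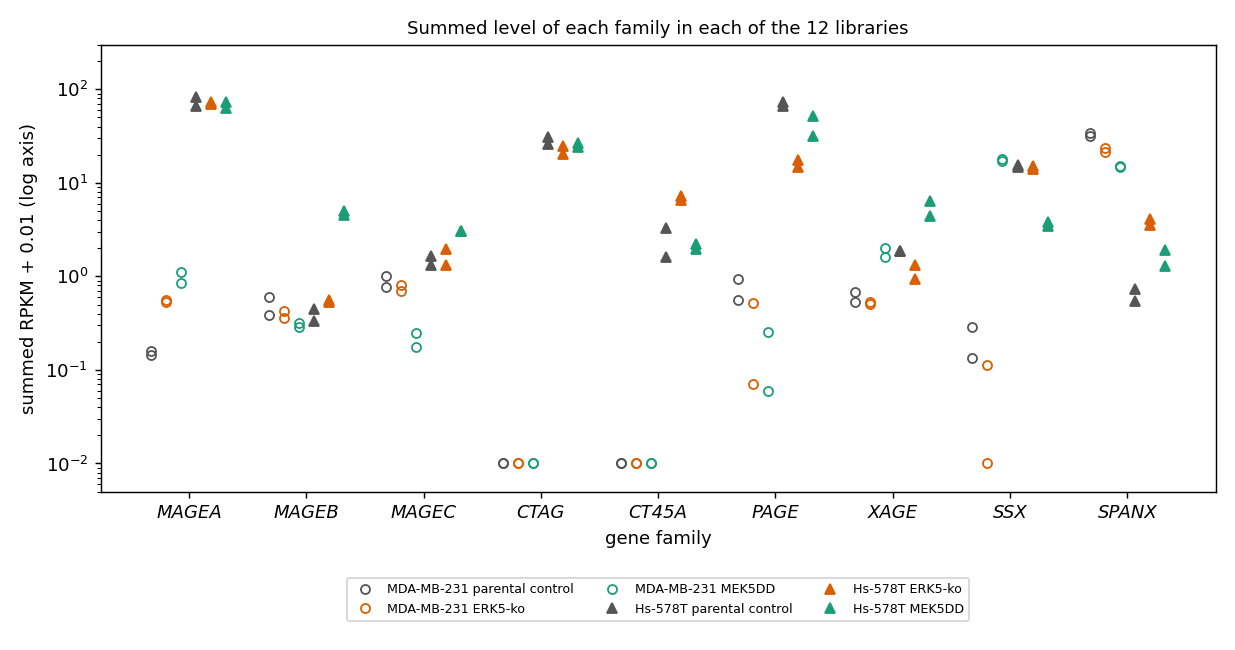
Summed RPKM of each family in each of the 12 libraries, on a log axis after adding 0.01, with circles for MDA-MB-231, triangles for Hs-578T and colour for the group. The MAGEA, CTAG, CT45A and PAGE sums of the Hs-578T libraries lie above all MDA-MB-231 libraries, the SPANX sums below, and the SSX sum is as high in MDA-MB-231 labelled MEK5DD (17.1 and 18.1) as in the Hs-578T parental controls (14.8 and 15.6).

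Each engineered group was compared with the parental controls of the same line. The filter left 11 members that never had more than 3 reads in MDA-MB-231, so that counts of calls are not compared between the lines. A member was called where its fold was over 1.5 or under 0.5 and its adjusted p under 0.05. On the log2 scale a fall has to be larger than a rise to be called, so that higher and lower counts are not compared. In MDA-MB-231 labelled ERK5-ko 1 member was called higher, MAGEA6, against 2.80% of all tested genes, and none lower, against 1.07% (limma; 3 members were lower at an unadjusted p under 0.05, and limma voom on reads called 1 lower). In Hs-578T labelled ERK5-ko 4 members were called higher, CT45A10, PAGE1, SSX3 and SPANXN3, against 9.35% of all, and 4 lower, MAGEA8, MAGEA11, PAGE2 and PAGE5, against 3.27%. In MDA-MB-231 labelled MEK5DD 3 were called higher, MAGEA11, SSX1 and XAGE2, against 7.64%, and 2 lower, PAGE5 and SPANXB1, against 6.31%. In Hs-578T labelled MEK5DD 3 were called higher, MAGEB16, MAGEC2 and XAGE2, against 2.90%, and 3 lower, MAGEA8, PAGE2 and SSX1, against 1.49%. SPANXN3 and MAGEB16 passed the filter only through the engineered group where they were high, and MAGEA8 only through the controls. SSX3 would not have passed without the libraries labelled ERK5-ko. The Hs-578T counts were thus partly fixed by the filter and are given as a description. The ERK5-ko and MEK5DD comparisons of a line share their 2 control libraries.

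**Figure D3:**
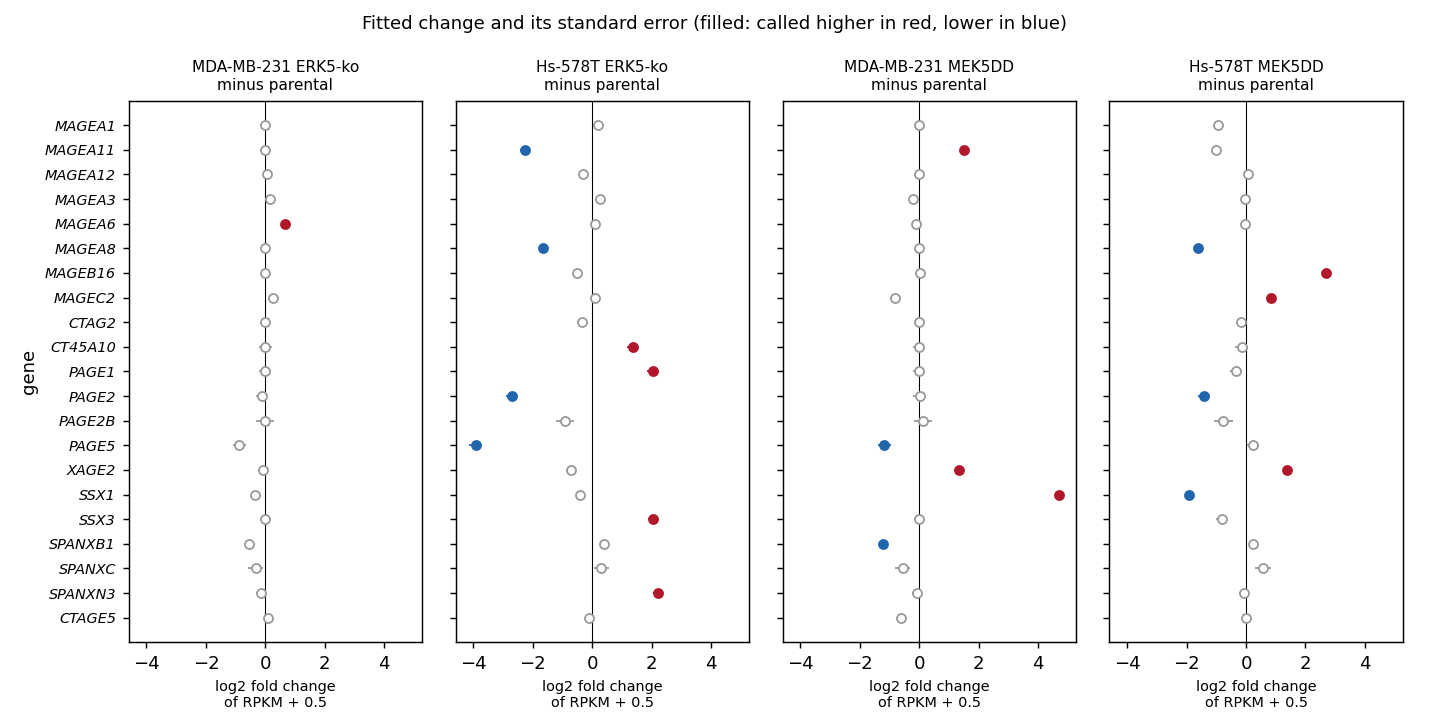
Fitted log2 fold change of RPKM + 0.5 (x axis) of the 21 tested members (y axis) against the parental controls of the same line in 4 comparisons, with bars of 1 standard error and filled points for called members. SSX1 has the largest rise, 4.69 in MDA-MB-231 labelled MEK5DD, and PAGE5 the largest fall, -3.93 in Hs-578T labelled ERK5-ko.

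Within the MAGEA family, the 3 members at the highest level were not called against the Hs-578T controls. Of the members at a lower level, MAGEA8 and MAGEA11 were called lower in at least 1 comparison, and MAGEA1 was lower without a call. In Hs-578T, MAGEA3 was at 30.8 and 23.5 RPKM in the controls, 31.5 and 33.3 in libraries labelled ERK5-ko and 28.0 and 24.9 in those labelled MEK5DD. MAGEA6 was at 19.8 and 16.3, 18.5 and 20.2, and 18.9 and 16.3, and MAGEA12 at 20.7 and 16.1, 14.5 and 15.1, and 20.7 and 17.5. None of the 3 passed the test in either comparison. The ratio of MAGEA3 to MAGEA6, copies with the same upstream window, stayed between 1.45 and 1.70 in all 6 Hs-578T libraries.

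MAGEA11 (chromosome X, 149688228 to 149717266) fell in Hs-578T from 6.99 and 5.45 RPKM to 1.07 and 0.710 in libraries labelled ERK5-ko, 7.001-fold lower by the means, with a log2 fold change of -2.28 (SE 0.151, adjusted p = 1.1e-06). In libraries labelled MEK5DD it was at 3.01 and 2.68 RPKM, 2.19-fold lower by the means. On the scale of RPKM + 0.5 its log2 fold change of -0.999 (SE 0.151, adjusted p = 0.000924) was just short of the fold required. In MDA-MB-231 it went the other way, from 0 and 1 read in the controls and none in libraries labelled ERK5-ko to 53 and 48 reads, 1.08 and 0.850 RPKM, in those labelled MEK5DD, at least 17.2-fold higher (adjusted p = 1.05e-05). No other gene listed overlaps it.

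MAGEA8 (chromosome X, 149881141 to 149885835), a neighbour of MAGEA11, was nearly lost from both engineered Hs-578T groups. It was at 1.38 and 1.52 RPKM, 47 reads each, in the controls, at 0.102 and 0.139 in libraries labelled ERK5-ko and at 0.133 and 0.131 in those labelled MEK5DD, 12.1-fold and 11.02-fold lower by the means. The log2 fold changes were -1.65 (SE 0.0915, adjusted p = 2.4e-07) and -1.63 (SE 0.0915, adjusted p = 1.35e-06), and both rest on the same 2 controls. MAGEA8 passed the filter through those controls alone, so it had to differ, and these p-values are only a description. No MDA-MB-231 library held a read of it. MAGEA1 was at 3.59 and 3.05 RPKM in Hs-578T controls, 4.06 and 3.58 in libraries labelled ERK5-ko, and 1.53 and 1.46 in those labelled MEK5DD. The last were 2.22-fold lower by the means. On the scale of RPKM + 0.5 the log2 fold change of -0.93 (SE 0.107, adjusted p = 0.000159) was short of the fold required.

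MAGEA6 was the only member called in MDA-MB-231 labelled ERK5-ko, at a very low level. It had 0 and 3 reads in the controls and 11 and 11 in libraries labelled ERK5-ko, 0.370 and 0.334 RPKM, at least 4.05-fold higher with a log2 fold change of 0.66 (SE 0.131, adjusted p = 0.00547). Its near copy MAGEA3 had 4 and 2 reads in the controls and 4 and 6 in those libraries, and neither gene had a read in MDA-MB-231 labelled MEK5DD. The call was lost without the first control library (log2 fold change 0.55, adjusted p = 0.0727) and with a pseudocount of 1 (0.38, under the fold required).

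**Figure D4:**
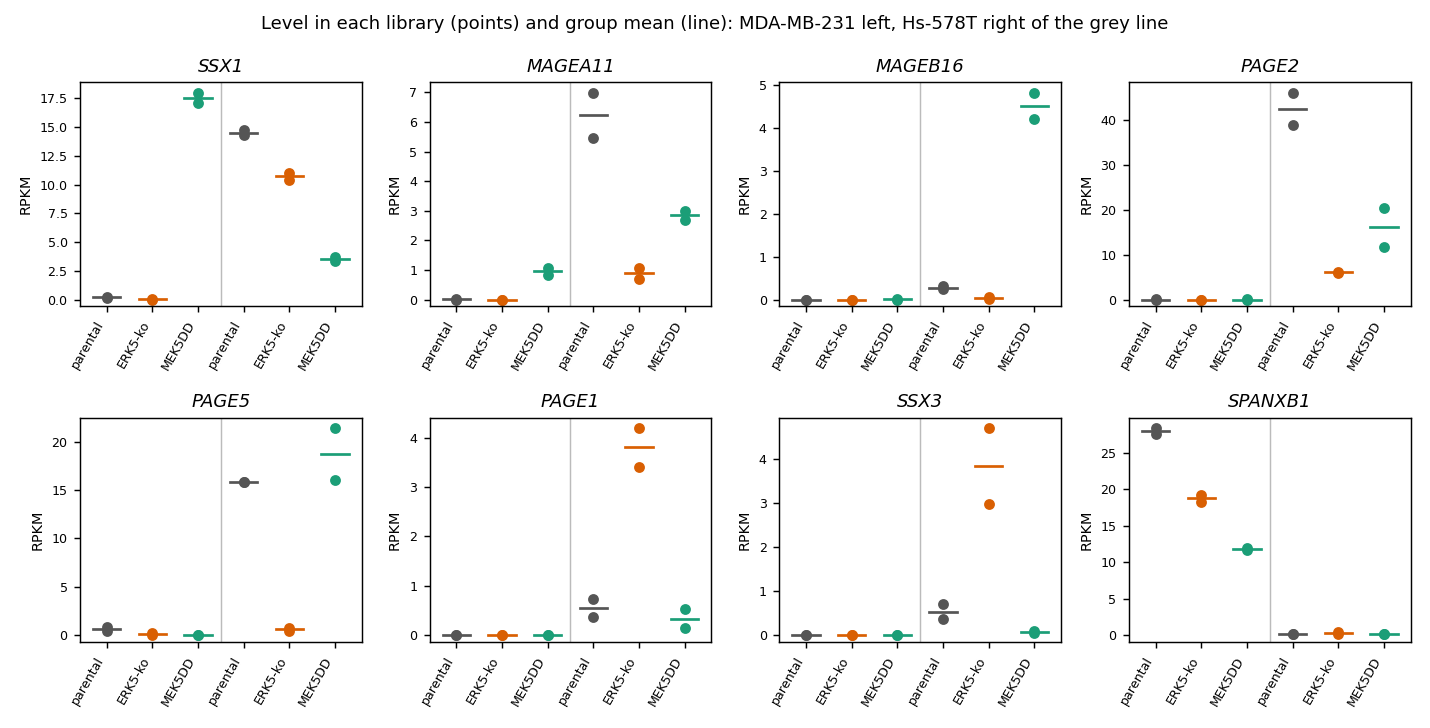
RPKM of 8 members in each library (points) with the group mean (line), MDA-MB-231 to the left and Hs-578T to the right of the grey line, each panel with its own linear axis. SSX1 and MAGEA11 are high in MDA-MB-231 labelled MEK5DD alone within that line, and MAGEB16 in Hs-578T labelled MEK5DD alone.

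MAGEB16 (chromosome X, 35798342 to 35803735), of the MAGEB family, was close to absent except in Hs-578T labelled MEK5DD. It had 168 and 149 reads there, 4.81 and 4.21 RPKM, against 10 and 11 reads, 0.254 and 0.308 RPKM, in the controls and 3 and 1 reads in libraries labelled ERK5-ko. The rise was 16.1-fold by the means, with a log2 fold change of 2.68 (SE 0.101, adjusted p = 5.27e-08, limma). MAGEB16 passed the filter through the libraries labelled MEK5DD alone, so it had to differ, and this p-value is only a description. Its transcripts shared no piece with another gene, and MDA-MB-231 held at most 1 read. The other 5 MAGEB genes were all under the filter but over 3 reads somewhere. One of them, MAGEB1, named after its values were seen, was read in MDA-MB-231 parental (8 and 12 reads) and ERK5-ko libraries (13 and 15) and in no other library.

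MAGEC2, whose product binds the ubiquitin ligase TRIM28, was read in both lines. In Hs-578T it was at 1.63 and 1.31 RPKM in the controls, 1.28 and 1.93 in libraries labelled ERK5-ko and 3.01 and 3.04 in those labelled MEK5DD, the last 2.06-fold higher with a log2 fold change of 0.84 (SE 0.154, adjusted p = 0.00283). With the 6 Hs-578T libraries alone the adjusted p was 0.0507. In MDA-MB-231 it was at 0.570 and 0.380 RPKM in the controls and 0.713 and 0.625 in libraries labelled ERK5-ko, and had 2 and 3 reads in those labelled MEK5DD, at least 8.11-fold lower than the controls, although its fitted log2 fold change of -0.82 (SE 0.154, adjusted p = 0.00121) was short of the fold required on the scale of RPKM + 0.5. MAGEC1, under the filter and named after its values were seen, had 29 and 28 reads in MDA-MB-231 controls, 5 and 2 in libraries labelled ERK5-ko and 8 and 8 in those labelled MEK5DD.

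CTAG2 (chromosome X, 154651972 to 154653579) stayed within a narrow range in Hs-578T, at 31.0 and 26.2 RPKM in the controls, 24.5 and 19.97 in libraries labelled ERK5-ko and 26.5 and 23.9 in those labelled MEK5DD, and was not called. CT45A10 was at 3.16 and 1.47 RPKM in the controls, 6.18 and 6.69 in libraries labelled ERK5-ko and 2.06 and 1.79 in those labelled MEK5DD. Its rise of 2.78-fold, with a log2 fold change of 1.37 (SE 0.214, adjusted p = 0.000475), was paralleled by CT45A5, a copy under the filter, with 3 and 3 reads in the controls against 8 and 10, and most pieces of both are common to the CT45A copies.

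The PAGE genes went in different directions in Hs-578T labelled ERK5-ko. PAGE2 (chromosome X, 55089008 to 55092842) fell from 46.2 and 38.9 to 6.22 and 6.07 RPKM, 6.92-fold lower by a log2 fold change of -2.69 (SE 0.208, adjusted p = 3.26e-06). PAGE5 fell from 15.8 and 15.8 to 0.418 and 0.755 RPKM, 27.0-fold lower by a log2 fold change of -3.93 (SE 0.221, adjusted p = 2.78e-07), which left it near the levels of the MDA-MB-231 controls, 0.814 and 0.461. PAGE1 (chromosome X, 49687450 to 49695993), which lies apart from them, rose from 0.731 and 0.366 to 3.41 and 4.20 RPKM, 6.94-fold higher with a log2 fold change of 2.05 (SE 0.205, adjusted p = 2.05e-05). PAGE2B was at 9.87 and 11.5 RPKM in the controls and 4.54 and 6.32 in libraries labelled ERK5-ko, 1.97-fold lower by the means. Its log2 fold change of -0.93 (SE 0.307, adjusted p = 0.0325) was short of the fold required, so it was not called.

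In Hs-578T labelled MEK5DD the copies parted. PAGE2 was at 20.6 and 11.8 RPKM, 2.63-fold lower than the controls with a log2 fold change of -1.42 (SE 0.208, adjusted p = 0.000783), whereas PAGE5 was at 21.4 and 16.0 RPKM with a log2 fold change of 0.22 (SE 0.221, adjusted p = 0.515). PAGE2B was at 9.77 and 3.73 RPKM, its 2 libraries far apart, and became a call without the higher of them (log2 fold change -1.40, adjusted p = 0.000796). The model of PAGE5 in the files, 55089045 to 55288785, covers nearly all of PAGE2 on the same strand, with 3798 bases in common, and also PAGE3 and FAM104B on the other strand, while the RefSeq window of PAGE5 ends at 55220345, beyond PAGE2. How reads in the common bases were assigned is not given in the sources used here. In MDA-MB-231, PAGE5 had 11 and 7 reads in the controls, 3 and 0 in libraries labelled ERK5-ko and none in those labelled MEK5DD, at least 2.99-fold lower in the last, and that call was lost without the first control library (log2 fold change -0.94) or with a pseudocount of 1 (-0.70).

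XAGE2 (chromosome X, 52369030 to 52375680), whose transcripts shared no piece with another gene, was the member called higher in libraries labelled MEK5DD of both lines. In MDA-MB-231 it had 1 and 1 reads in the controls, 0 and 1 in libraries labelled ERK5-ko and 13 and 16 in those labelled MEK5DD, 0.882 and 0.941 RPKM, at least 4.87-fold higher (adjusted p = 4.22e-05). In Hs-578T it was at 1.499 and 1.574 RPKM in the controls, 0.684 and 0.808 in libraries labelled ERK5-ko and 5.96 and 3.90 in those labelled MEK5DD, 3.21-fold higher with a log2 fold change of 1.39 (SE 0.157, adjusted p = 0.000153). The levels in MDA-MB-231 labelled MEK5DD stayed below those of the Hs-578T controls.

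SSX1 (chromosome X, 48255317 to 48267444), the gene known from its fusion with SS18 in synovial sarcoma, showed the largest change of any member. In MDA-MB-231 it was at 0.126 and 0.279 RPKM in the controls, 4 and 10 reads, at 0.103 and 0 in libraries labelled ERK5-ko, and at 18.0 and 17.1 in those labelled MEK5DD, 558 and 612 reads. The rise was 86.8-fold by the means, with a log2 fold change of 4.69 (SE 0.133, adjusted p = 4.47e-10). In Hs-578T it was at 14.3 and 14.7 RPKM in the controls, 10.4 and 11.04 in libraries labelled ERK5-ko and 3.68 and 3.36 in those labelled MEK5DD, the last 4.12-fold lower by a log2 fold change of -1.90 (SE 0.133, adjusted p = 6.64e-06). The same label thus went with a higher level in one line and a lower level in the other, in every library. SSX5 overlaps SSX1 on the opposite strand and had at most 3 reads in a library.

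SSX3 (chromosome X, 48346428 to 48356707) had no read in MDA-MB-231. In Hs-578T it was at 0.365 and 0.705 RPKM in the controls, 4.69 and 2.97 in libraries labelled ERK5-ko and 0.103 and 0.0508 in those labelled MEK5DD. It rose 7.16-fold in the libraries labelled ERK5-ko, with a log2 fold change of 2.06 (SE 0.184, adjusted p = 9.4e-06), where SSX1 did not. Beside those libraries only 1 control library reached 0.5 RPKM. SSX3 would thus not have passed the filter without them, and this p-value is only a description. With 2 and 1 reads in libraries labelled MEK5DD it was at least 3.48-fold lower than the controls there, and the fitted log2 fold change of -0.82 (SE 0.184, adjusted p = 0.00823) was short of the fold required.

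SPANXB1 fell in both engineered groups of MDA-MB-231. It was at 28.4 and 27.6 RPKM in the controls, 19.3 and 18.3 in libraries labelled ERK5-ko and 11.7 and 11.97 in those labelled MEK5DD, and the 3 groups did not overlap. The MEK5DD libraries were 2.37-fold lower, by a log2 fold change of -1.21 (SE 0.131, adjusted p = 2.08e-05), and the ERK5-ko libraries 1.49-fold lower, with -0.57 (SE 0.131, adjusted p = 0.0127), short of the fold required. SPANXC was at 3.36 and 5.79, 3.91 and 3.02, and 3.24 and 2.53 RPKM and was not called. In Hs-578T both genes stayed at 0.0937 to 0.898 RPKM.

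SPANXN3 (chromosome X, 143508735 to 143517475), of the SPANXN branch and with no piece in common with another gene, exceeded 2 reads in Hs-578T labelled ERK5-ko alone, with 32 and 43 reads, 2.07 and 3.02 RPKM, against 2 and 2 reads in the controls and 2 and 1 in libraries labelled MEK5DD. The rise was at least 10.9-fold against 3 reads a library (adjusted p = 1.7e-06, limma). SPANXN3 passed the filter through the libraries labelled ERK5-ko alone, so it had to differ, and this p-value is only a description. SPANXN1, under the filter and named after its values were seen, had 13 and 14 reads in the same 2 libraries and at most 2 in any other. CTAGE5 was not called in any comparison with the controls of its line, and its largest log2 fold change was -0.62 (SE 0.122, adjusted p = 0.00166) in MDA-MB-231 labelled MEK5DD, at 9.87 and 10.9 RPKM against 16.3 and 16.2. A second protein-coding gene lies over CTAGE5 on the same strand.

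Whether an effect differed between the lines was tested as the MDA-MB-231 change minus the Hs-578T change, called at an adjusted p under 0.05. For the ERK5-ko label 12 members differed, where 39.8% of all tested genes did, and for the MEK5DD label 12 members, where 39.6% did. For 11 of the 21 members no MDA-MB-231 library held more than 3 reads, so that the difference there mirrors the change in Hs-578T. SSX1 differed most for the MEK5DD label, by 6.59 (SE 0.188, adjusted p = 2.01e-09), and MAGEA11 differed by 2.52 for that label (adjusted p = 6.03e-06), both genes being read in MDA-MB-231 labelled MEK5DD and in Hs-578T. For the ERK5-ko label MAGEA11 differed by 2.25 (adjusted p = 1.86e-05, and 0.0833 with limma voom), but the 4 MDA-MB-231 libraries compared held 1 read of it at most, so that this too mirrors the fall in Hs-578T.

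Other genes were counted in lists chosen for their function, by the same filter and calls. The shares of all tested genes called, given above for the members, hold beside these counts as well. They were 9.35% higher and 3.27% lower in Hs-578T labelled ERK5-ko, 2.90% and 1.49% in Hs-578T labelled MEK5DD, 2.80% and 1.07% in MDA-MB-231 labelled ERK5-ko, 7.64% and 6.31% in MDA-MB-231 labelled MEK5DD, and 23.5% and 20.7% between the parental controls. Of 55 other cancer-testis genes, 17 were tested. In Hs-578T labelled ERK5-ko 3 were called higher, CT83 with 9.52 against 1.05 RPKM (log2 fold change 2.68, SE 0.155, adjusted p = 3.52e-07), PLAC1 with 1.93 against 0.416 and SAGE1 with 2.46 against 1.0, and 1 lower, PASD1 with 0.105 against 1.09. In Hs-578T labelled MEK5DD none was higher (limma; 1 at an unadjusted p under 0.05 and 0 by limma voom) and 2 were lower, PASD1 with 0.102 RPKM and CT83 with 0.180. CT83 was thus higher under one label and lower under the other, against the same controls. In both MDA-MB-231 comparisons none was called (limma; 0 higher and 4 lower at an unadjusted p under 0.05 for ERK5-ko, 3 and 5 for MEK5DD; limma voom called 0 and 1, and 1 and 3). Between the parental controls 10 of the 17 were higher in Hs-578T, where 23.5% of all tested genes were, led by PRAME with 53.0 against 0.0129 RPKM and CSAG1, which lies among the MAGEA genes, with 34.2 against 0.194, and 4 were lower, where 20.7% of all were, led by CT83 with 1.05 against 10.2 and MAEL with 0.222 against 2.63.

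The type II MAGE genes, relatives used in most tissues, had 7 tested of 12. In Hs-578T labelled ERK5-ko 2 were called higher, NDN with 11.03 against 2.41 RPKM and MAGEH1 with 8.56 against 3.01, and MAGEH1 was also higher in MDA-MB-231 labelled MEK5DD, with 11.2 against 4.25. None was called lower in a comparison with parental controls of the line (limma; 1 lower at an unadjusted p under 0.05 in each ERK5-ko comparison, 0 in MDA-MB-231 labelled MEK5DD and 4 in Hs-578T labelled MEK5DD, where limma voom called 1). Between the parental controls 3 were higher in Hs-578T, NDN, MAGED1 and MAGEF1.

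Of 49 genes of DNA methylation and chromatin silencing, 47 were tested. In Hs-578T labelled ERK5-ko 7 were called higher, where 9.35% of all tested genes were, led by HELLS, a remodeller needed for DNA methylation, with 9.76 against 2.90 RPKM (log2 fold change 1.58, SE 0.154, adjusted p = 1.77e-05), SUV39H1 with 11.2 against 5.56, DNMT1, the maintenance methyltransferase, with 116 against 66.3, and UHRF1 with 20.96 against 11.8, and none lower (limma; 4 at an unadjusted p under 0.05, 0 by limma voom). Their median log2 fold change was 0.19, against 0.01 over all tested genes. In MDA-MB-231 labelled MEK5DD 3 were higher, HELLS, DNMT3B and UHRF1, and 1 lower, ZBTB33. In MDA-MB-231 labelled ERK5-ko and in Hs-578T labelled MEK5DD none was called (limma; 1 higher and 15 lower at an unadjusted p under 0.05 in each, 0 by limma voom). Between the parental controls 15 were lower in Hs-578T, where 20.7% of all tested genes were, led by EZH2 with 6.69 against 36.2 RPKM, HELLS with 2.90 against 16.6, SUV39H1 with 5.56 against 23.8 and UHRF1 with 11.8 against 42.7, and 4 were higher, where 23.5% were, among them DNMT3A and DNMT3B. These 15 genes were picked by this call. Over the 47 tested genes of the list the median log2 difference was -0.36, against -0.19 over all tested genes. Whether these levels are related to those of the cancer-testis genes was not tested.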

How the data were processed

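The data are 12 RNA sequencing libraries, 2 in each of 6 groups formed by cell line (MDA-MB-231 or Hs-578T) and label. The authors deposited RPKM values, with no counts beside them. Per the submitters' processing notes, bcl2fastq, Trimmomatic 0.32, TopHat2 2.1.1, R 3.3.1, DESeq2 1.12.4 and GRCh38 were used, and a stranded mRNA kit per the labels. The counting tool, the annotation and the read length are not given in the sources used here.

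Library totals and reads were recovered from the RPKM values, and 100.0% of values came out whole within a relative tolerance of 1e-06. Reads are the smallest whole numbers that the values allow. The floor of a group was set at 3 reads in each of its libraries. For a gene that did not exceed it, the fold is a bound against 3 reads per library, for counting error only.

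Protein-coding genes with at least 0.5 RPKM in at least 2 libraries (13737) were fitted as log2(RPKM + 0.5) using limma 3.58.1 (R 4.3.3), with a mean for each of the 6 groups, a variance trend and 6 residual degrees of freedom. Benjamini-Hochberg adjustment was made over all genes of a comparison. Fold changes on this scale understate those of low genes. Every member above this filter is named, with up to 4 called genes of each list in a comparison. One of the cell type markers is not reported here. The members, lists and tests were chosen with earlier results of these data known. Alternatives changed the pseudocount, the filter, the scaling, the libraries and gene types in the fit and the fold threshold, added the replicate number as a block, used limma voom on the recovered reads, or left out each library. Replicates of the same number deviated together in each pair of groups of a line (correlations 0.107 to 0.541), and replicates differed by more than counting noise (chi-square per degree of freedom 2.81 to 41.9). Python 3.11.15 with numpy 2.4.6, pandas 2.3.3 and matplotlib 3.10.9 served for the rest.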

Additional observations from a re-analysis of the deposited data

Results flagged for a closer look

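The change against the parental controls differed between the lines (MDA-MB-231 minus Hs-578T, log2 scale, adjusted p under 0.05 by limma) for 12 members under the ERK5-ko label and for 12 under the MEK5DD label, where 39.8% and 39.6% of all tested genes differed.

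Under the ERK5-ko label, the difference was 2.25 for MAGEA11, 1.65 for MAGEA8, 2.58 for PAGE2 and 3.04 for PAGE5, which fell in Hs-578T. It was -1.37 for CT45A10, -2.05 for PAGE1, -2.06 for SSX3 and -2.35 for SPANXN3, which rose in Hs-578T. Of these 8 genes all but PAGE5 had 3 reads or fewer in each of the 4 MDA-MB-231 libraries compared, MAGEA11 at most 1, so that their differences mirror the change in Hs-578T. Smaller differences were 0.56 for MAGEA6, 0.52 for MAGEB16, 0.63 for XAGE2 and -0.95 for SPANXB1, and MAGEB16 and XAGE2 had at most 1 read in those 4 libraries. The XAGE2 call was lost in 16 of 20 alternatives, that of MAGEA6 in 10 and that of MAGEB16 in 2. With limma voom on the recovered reads the adjusted p was 0.0833 for MAGEA11, 0.163 for PAGE2, 0.105 for PAGE5, 0.238 for CT45A10 and 0.745 for XAGE2, whereas the calls of the first 4 genes against the Hs-578T controls were kept there.

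Under the MEK5DD label, SSX1 differed by 6.59, the largest value, and rose in both MDA-MB-231 libraries while falling in both Hs-578T libraries. MAGEA11 differed by 2.52, and was likewise read in both lines under this label. The difference was 1.63 for MAGEA8, 1.43 for PAGE2, 0.93 for MAGEA1, 0.82 for SSX3 and -2.65 for MAGEB16, which had 3 reads or fewer in every MDA-MB-231 library. It was -1.67 for MAGEC2, -1.39 for PAGE5, -1.46 for SPANXB1, -1.12 for SPANXC and -0.62 for CTAGE5. Calls for SSX3, SPANXC, MAGEA1 and PAGE2 were lost with limma voom, and over 20 alternatives that of SSX3 was lost in 9 and that of SPANXC in 6.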

How the results depend on the processing

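Of 63 called values of named members, none changed direction under any alternative, and 47 kept their call under all of them. Of the 1338 values under alternatives, 57 lost the call, 9 of them with limma voom and 6 when the pseudocount was 1. With the replicate number as a block, all 63 calls were kept and every count of called members was the same as without it, 8 in Hs-578T labelled ERK5-ko, for example. The least stable count was that of MDA-MB-231 labelled ERK5-ko, with 1 member called, which became 3 with a pseudocount of 0.1 or with no fold threshold, 2 with limma voom and 0 when the pseudocount was 1. With no fold threshold 14 members were called in Hs-578T labelled ERK5-ko, 5 higher and 9 lower. SPANXB1 was added to the higher ones, and CTAG2, MAGEB16, PAGE2B, SSX1 and XAGE2 to the lower. In Hs-578T labelled MEK5DD the count of 6, with 3 lower, became 9, with 6 lower. This held with a pseudocount of 0.1, with limma voom and with no fold threshold. The count for the difference between the lines became 7 under ERK5-ko with limma voom and 19 under MEK5DD with no filter. Leaving out each library in turn gave 0 to 2 members in MDA-MB-231 labelled ERK5-ko, 4 to 5 in MDA-MB-231 labelled MEK5DD, 8 to 9 in Hs-578T labelled ERK5-ko, 6 to 8 in Hs-578T labelled MEK5DD, 19 between the parental controls, and 9 to 13 and 10 to 13 for the differences between lines under ERK5-ko and MEK5DD. In MDA-MB-231 labelled ERK5-ko it gave 0 without the first control library, where MAGEA6 was lost, and 2 without the second control library or the first ERK5-ko library, where PAGE5 was added. The lone library left in a group was then assumed to vary like the other groups. The cause of these shifts was not tested. For members near 3 reads, depth limits what could be seen, and the pseudocount sets the size of a fitted change.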
